A study of Mus musculus with 2 samples.

Results

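Iron-sulfur clusters are small inorganic cofactors of iron and sulfur, and 9 genes of the mitochondrial machinery that builds and delivers them are described here: Nfs1, Lyrm4, Iscu, Hscb, Glrx5, Isca1, Isca2, Nfu1 and Bola3. They were chosen by name, as every probe set whose gene symbol in the platform annotation was one of these. The rule found 15 probe sets of 45037, and all 9 genes were among the 18193 genes that had a value. RNA was measured on Affymetrix expression arrays in 2 samples of spleen cells, sorted from C57BL/6 animals bearing hepatocellular carcinoma, the main cancer of the liver. The CD45- cells were sorted as Ter119+CD45-, that is, for an antigen carried by maturing red cells and against CD45, which nearly all white cells carry. The CD45+ cells came from the same mice and are the white cell control; the labels do not state whether Ter119 entered that gate. All mice bore tumours, so no sample shows either population without a tumour, and the age of the mice, the way the tumour was raised and any pooling of animals are not stated in the labels. Each group had 1 array, so no difference could be set against a spread between replicates, and no test was made.

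In the mitochondrion, the cysteine desulfurase Nfs1, held by its small partner Lyrm4, takes sulfur from cysteine, and the first cluster forms on the scaffold protein Iscu. The co-chaperone Hscb helps to release that cluster to the glutaredoxin Glrx5, and Isca1 and Isca2 then build the larger cubane clusters, which Nfu1 and Bola3 help to place in their final enzymes. Red cell precursors use this pathway heavily because ferrochelatase, the enzyme that puts iron into haem, itself carries a cluster in mammals, and because the iron sensor Aco1 reads the supply of clusters. Inherited loss of GLRX5 or HSCB causes sideroblastic anaemia in people, in which iron collects in the mitochondria of red cell precursors, while loss of NFU1 or BOLA3 causes a metabolic disease of infancy with failing lipoate-dependent enzymes.

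The genes of the scaffold and of cluster transfer were several times brighter in the CD45- cells, those of the desulfurase less so, and Nfu1 was dimmer. Of the 9 genes, 5 were at least 4-fold higher in the CD45- cells (Isca1, Glrx5, Bola3, Iscu and Isca2), and 0 were at least 4-fold lower. Among all 11793 genes above a detection level of 101.1 in at least 1 array, 8.31% were higher and 16.8% lower by 4-fold or more. The detection level is the intensity under which 95% of the probe sets of odorant and pheromone receptor genes lay, since such genes should be silent in spleen. All 9 genes were above it in both arrays, and of the 8272 genes for which that held, 10% were at least 4-fold higher. At a 2-fold limit, 7 of the 9 were higher, against 16.8% of all measured genes, and 1 was lower, against 33.3%. The median log2 difference of the 9 genes, CD45- minus CD45+, was 2.12 (4.33-fold), and that of all measured genes was -0.26. After quantile normalization of the arrays, the median of all measured genes was 0.01, a shift of 0.27, and that of the 9 genes was 1.93, with 3 of them at least 4-fold higher (Isca1, Glrx5 and Bola3) against 9.31% of all measured genes. Genes higher in the CD45- cells made up 33.1% of all 4-fold differences as deposited and 42.1% after quantile normalization.

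The start regions of 4 of these genes are printed here to show what the genes with the largest differences, Isca1 and Glrx5, share in sequence with each other and with Isca2, a paralogue of Isca1, and with Nfu1, the gene with the opposite difference. Each runs from 250 bases before to 50 after the RefSeq start site in build GRCm38.p6, 5′ to 3′ on the gene's strand. Isca1 lies at chr13:59769740-59770039 on the minus strand, Glrx5 at chr12:105032368-105032667, Isca2 at chr12:84773020-84773319 and Nfu1 at chr6:87009586-87009885, these 3 on the plus strand. Capitals mark, on either strand, the CCAAT box, the letters CCGGAAG read by ETS factors, and AGATAA or TGATAA, hexamers read by GATA factors.
Isca1: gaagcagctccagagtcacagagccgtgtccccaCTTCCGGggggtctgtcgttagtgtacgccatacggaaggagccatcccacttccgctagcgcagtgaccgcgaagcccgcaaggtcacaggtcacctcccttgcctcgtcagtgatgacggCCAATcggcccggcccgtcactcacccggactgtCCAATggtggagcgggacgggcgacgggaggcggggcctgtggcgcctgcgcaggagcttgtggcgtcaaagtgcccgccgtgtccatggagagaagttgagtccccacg
Glrx5: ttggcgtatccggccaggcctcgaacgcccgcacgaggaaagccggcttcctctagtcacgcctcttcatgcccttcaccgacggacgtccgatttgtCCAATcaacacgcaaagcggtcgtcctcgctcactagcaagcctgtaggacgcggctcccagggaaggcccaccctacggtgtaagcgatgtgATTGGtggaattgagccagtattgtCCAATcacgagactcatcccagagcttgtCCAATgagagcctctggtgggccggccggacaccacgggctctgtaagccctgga
Isca2: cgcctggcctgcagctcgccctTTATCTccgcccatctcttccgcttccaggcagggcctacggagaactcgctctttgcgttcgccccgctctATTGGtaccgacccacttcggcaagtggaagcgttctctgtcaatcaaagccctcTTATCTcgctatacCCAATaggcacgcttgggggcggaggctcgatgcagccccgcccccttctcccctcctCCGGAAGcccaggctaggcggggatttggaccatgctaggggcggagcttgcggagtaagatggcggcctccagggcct
Nfu1: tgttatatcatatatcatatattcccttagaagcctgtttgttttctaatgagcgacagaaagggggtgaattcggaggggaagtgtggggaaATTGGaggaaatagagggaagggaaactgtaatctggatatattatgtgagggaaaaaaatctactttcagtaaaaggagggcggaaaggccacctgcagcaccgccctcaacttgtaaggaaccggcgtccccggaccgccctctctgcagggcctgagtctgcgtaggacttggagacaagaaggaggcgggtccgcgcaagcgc

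The capitals show CCAAT, the box bound by the factor NF-Y, 4 times in the Glrx5 window, where 1.06% of all 32851 start regions in the table held it at least 4 times. It stood at 2 places in the windows of Isca1 and Isca2 and at 1 in that of Nfu1. Among the printed windows it was thus present in the gene that was lower as well as in those that were higher. Of the 7 genes matched to start regions, 5 held CCAAT (Glrx5, Isca1, Isca2, Nfu1 and Bola3), against 37.4% of all start regions. Nfs1 and Lyrm4 did not hold it. The hexamers AGATAA or TGATAA, which are among the letters read by the red cell factor GATA1, were in 1 of the 7, Isca2, at 2 places. Of all start regions, 18.6% held at least 1 and 3.26% at least 2. Other GATA letters were not searched. The ETS letters CCGGAAG were in 3 of the 7 (Nfs1, Isca1 and Isca2), against 8.86% of all start regions, and in neither Glrx5 nor Nfu1. CACCC, the core that Kruppel-like factors read, was in 6 of the 7 in at least 1 start region, against 57.5%. No match overlapped another. The windows of Isca1, Glrx5 and Isca2 had a GC content of 65.7%, 60.0% and 63.0%, and that of Nfu1 50.3%. Those of Nfs1 and Lyrm4, with smaller differences, had 69.7% and 73.3%, and those of Bola3 51.7%, 53.7% and 72.3%. The median of all start regions was 52.7%. Bola3 had 3 start regions in the table and the other 6 matched genes 1 each. A gene was counted if any of its start regions held the letters, while the shares are per start region. Iscu and Hscb were not matched. A match describes letters in a window and shows no binding.

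**Figure D1:**
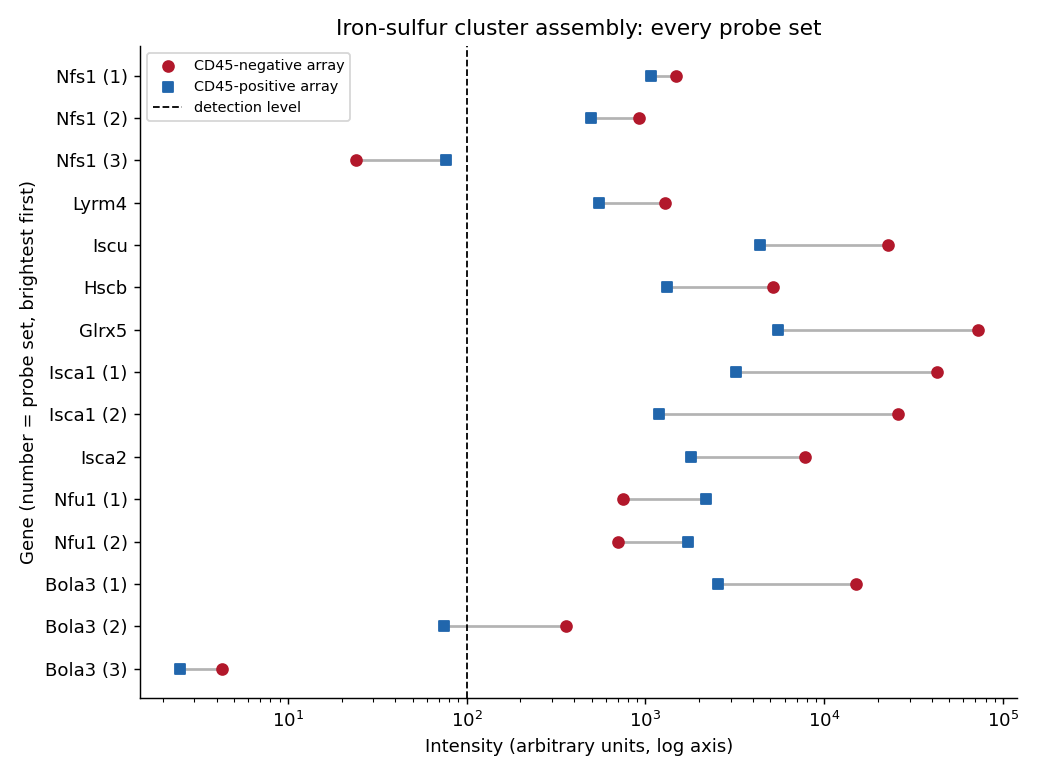
Intensity of each of the 15 probe sets (1 row each, numbered within a gene from the brightest) in the CD45-negative array (circles) and the CD45-positive array (squares), on a log axis, with 1 array per group and the detection level of 101.1 as a dashed line. Glrx5 shows the brightest circle at 72031.5, both Nfu1 rows have the circle to the left of the square, and the dimmest rows of Nfs1 and Bola3 lie under the level.

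The desulfurase pair had the smallest upward differences. Nfs1, the enzyme that supplies the sulfur, had an intensity of 1485.9 in the CD45- cells and 1071.4 in the CD45+ cells by its brightest probe set, a log2 difference of 0.47 (1.39-fold). A second probe set gave 925 against 496.4, a log2 difference of 0.90. The remaining one, at 24.2 against 76.3, was under the detection level in both arrays and gives no direction. Averaged over its 3 probe sets, the difference of Nfs1 was -0.10, so its direction rests on leaving out the dim one. Lyrm4, the LYR-motif protein without which Nfs1 is unstable, had 1 probe set, at 1285.7 against 547.3, a log2 difference of 1.23 (2.35-fold). Of all measured genes, 27.7% had a difference as high as that of Nfs1 or higher, and 13.7% one as high as that of Lyrm4.

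Iscu, the scaffold on which clusters are assembled, was brighter in the CD45- cells by more than Nfs1 was. Its single probe set stood at 22759.7 in the CD45- cells and 4352.6 in the CD45+ cells, a log2 difference of 2.39 (5.23-fold), and 6.66% of measured genes had a difference at least as high. The log2 difference of Iscu exceeded that of Nfs1 by 1.91. After quantile normalization, Iscu stood at 1.87, under the 4-fold limit.

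Both genes of the transfer step were brighter in the CD45- cells, Glrx5 by far the more. Glrx5, the glutaredoxin that carries the cluster on from the scaffold, had 72031.5 in the CD45- cells and 5517.1 in the CD45+ cells, a log2 difference of 3.71 (13.1-fold). Only 332 of the 11793 measured genes (2.82%) had a difference at least as high. Its probe set was the 43rd brightest of all 45037 on the CD45-negative array, and whether it was saturated there was not tested, since the table holds no saturation mark. Hscb, the co-chaperone that docks the loaded scaffold to the mitochondrial Hsp70, had 5191.1 against 1326.4, a log2 difference of 1.97 (3.91-fold). Hscb lay just under the 4-fold limit and Isca2, at 4.33-fold, just over it. After each array was centred on its median, Hscb stood at 2.01 and passed the limit.

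Of the A-type factors that make the cubane clusters, Isca1 had a log2 difference that was 1.61 above that of Isca2, although the encoded proteins work as partners. Isca1 had 42699.4 in the CD45- cells against 3217.4 in the CD45+ cells by its brighter probe set, a log2 difference of 3.73 (13.3-fold), the highest of the 9 genes. Its second probe set gave 25993.4 against 1183.8, which is 4.46 on the log2 scale (22.0-fold), so both probe sets place Isca1 among the higher genes. Isca2 had 7764.5 against 1792, a log2 difference of 2.12 (4.33-fold), and 1.94 after quantile normalization. The genes measured in both arrays whose pair of log2 intensities lay nearest to that of Isca1 were Atpif1, Bsg and Odc1, at distances of 0.09, 0.16 and 0.17, a likeness over 2 arrays only.

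The late factors Nfu1 and Bola3 went in opposite directions. Bola3, which helps to load clusters into lipoyl synthase and into respiratory complexes, had 15009.5 in the CD45- cells and 2531.7 in the CD45+ cells, a log2 difference of 2.57 (5.93-fold). Its second probe set, at 359.4 against 75, was above the detection level only in the CD45- cells and gave at least 3.55-fold, and the remaining one, at 4.3 against 2.5, was under the level in both arrays. Averaged over all 3 probe sets, Bola3 was under the level in the CD45+ cells, with a difference of at least 1.50, or 1.87 without a level. Nfu1, the late carrier of cubane clusters, had 751.1 in the CD45- cells and 2177.4 in the CD45+ cells, a log2 difference of -1.54 (2.90-fold lower). Its second probe set gave 699 against 1739.8, which is -1.32, and it was marked as matching related sequences. A difference as low as that of Nfu1 or lower was found for 23.3% of all measured genes. The differences of Bola3 and Nfu1 lay 4.10 apart on the log2 scale, or at least 2.92, and 3.30 without a level, with the probe sets of each gene averaged.

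**Figure D2:**
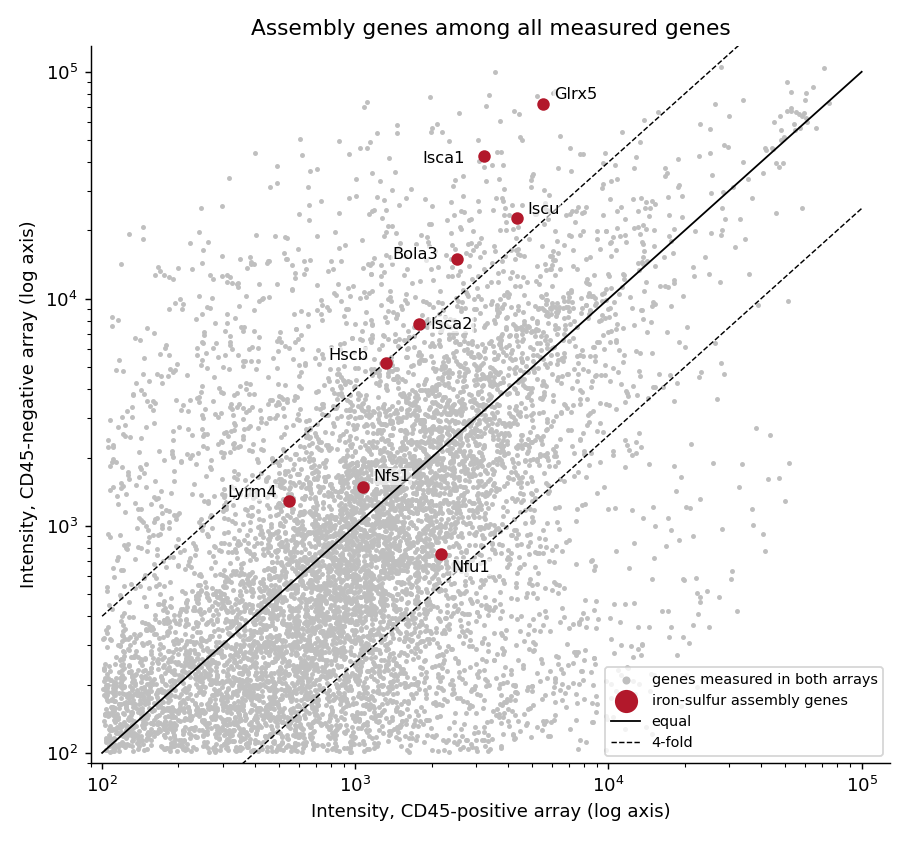
Intensity of each gene measured in both arrays (8272 grey points, the 9 assembly genes in red), CD45-positive array on the horizontal and CD45-negative array on the vertical axis, both log axes, with equality as a solid line and 4-fold as dashed lines. Isca1, Glrx5, Bola3, Iscu and Isca2 lie above the upper dashed line, Hscb at 3.91-fold just under it, and Nfu1 is the only one of the 9 under the line of equality.

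The order of the log2 differences ran from Isca1 (3.73) and Glrx5 (3.71) through Bola3 (2.57), Iscu (2.39), Isca2 (2.12), Hscb (1.97), Lyrm4 (1.23) and Nfs1 (0.47) to Nfu1 (-1.54), a range of 5.27. Neighbours in this order cannot be ranked with 1 array per group. Over 5474 genes with several probe sets above the detection level in at least 1 array, the pooled SD of the log2 difference within a gene was 0.83. Intensities under the level were set to it, and this SD is not replicate error. Isca1 and Glrx5 lay at or above 3.28, and Nfu1 at or below -1.32, under all 8 alternatives in processing, while Nfs1 ran from -0.10 to 0.74.

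**Figure D3:**
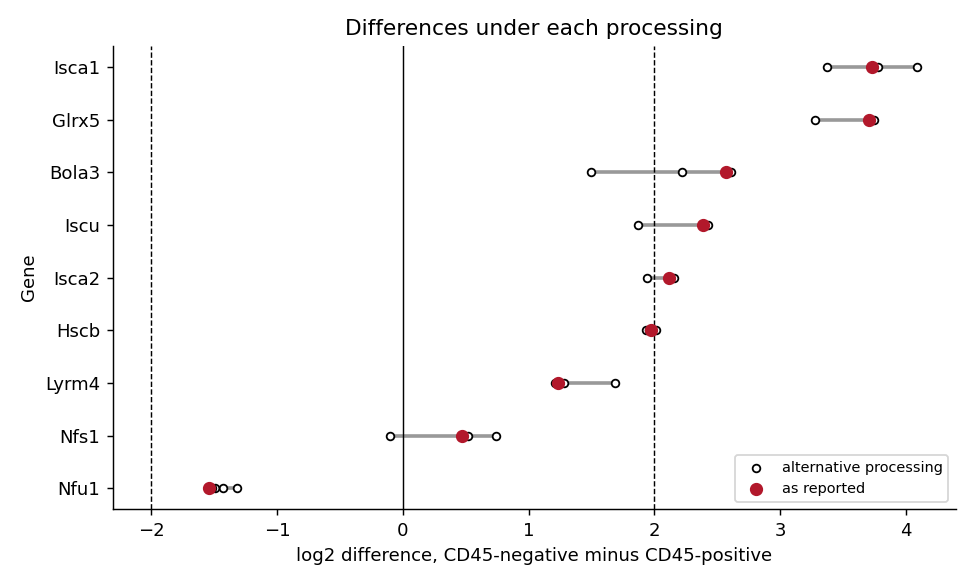
Log2 difference, CD45-negative minus CD45-positive, of each of the 9 genes as reported (filled) and under 8 alternative ways of processing the same 2 arrays (open; the grey bar spans the values, and it is not an error bar), with 4-fold as dashed lines. Isca1 and Glrx5 stay above the 4-fold limit throughout, Bola3, Iscu and Isca2 fall under it in 1 setting each, and Nfs1 is the only gene with values on both sides of 0.

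The other genes of the mitochondrial pathway went in both directions. Of 15 listed, 11 were measured, and 2 passed 4-fold upward and 1 downward, against 8.31% and 16.8% of all measured genes. The median log2 difference of the list was 0.20 (-0.31 when probe sets were averaged). Slc25a37, the mitoferrin that imports iron into the mitochondria of red cell precursors, had 65601.9 in the CD45- cells against 2556.4, a log2 difference of 4.68. Its relative Slc25a28, the mitoferrin of other tissues, had 884.5 against 1437.6, a log2 difference of -0.70. Iba57, which works with the A-type factors Isca1 and Isca2, had 1396.4 against 187.9, a log2 difference of 2.89, and its second probe set, at 812 against 57.1, was under the level in the CD45+ cells. Fdx1, a ferredoxin that passes electrons in the mitochondrion, went the other way, at 173.7 against 1056.3 (6.08-fold lower). Hspa9, the Hsp70 to which Hscb delivers the scaffold, had 2502.6 against 2470.6 by its brightest probe set, but its 5 probe sets ran from -0.36 to 5.25 and settle no direction. The other 4 listed genes are not analysed here.

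The cytosolic assembly genes, which build clusters for proteins outside the mitochondrion, mostly lay within 2-fold between the samples (8 of 10). Of all 11793 measured genes, 5895 did. All 10 with a value were measured. Past 4-fold, 0 were higher and 0 lower, against 8.31% and 16.8% of all measured genes. The median log2 difference of the list was -0.47, negative in all 9 settings (-0.61 to -0.20). That of all measured genes was -0.26. With the mean of probe sets the 2 medians were -0.20 and -0.28, and after quantile normalization -0.21 and 0.01. Ciapin1, the electron carrier of this pathway, was the highest, at 2478.7 against 871.7 (2.84-fold), and 0.48 on the log2 scale without probe sets marked as cross-hybridizing. Mms19, which hands clusters to DNA-handling enzymes, was the lowest, at 540 against 1081.1. Ciao1, of the same targeting complex, had 1723 against 1719.6.

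Proteins that receive clusters were spread on both sides of 0. Of 35 listed clients, 32 were measured. As deposited, 5 passed 4-fold upward and 3 downward (only Xdh downward after quantile normalization), against 8.31% and 16.8% of all measured genes. The median log2 difference of the clients was -0.06, which ran from -0.18 to 0.19 over the settings. Fech, the ferrochelatase that completes haem and a client in mammals, was the highest, at 77605.2 against 1976.4 (39.3-fold). Mocs1, an enzyme of molybdenum cofactor synthesis, had 830.9 against 126.7, a log2 difference of 2.71, or 1.75 once probe sets marked as cross-hybridizing were dropped. The other 3 past 4-fold, Pole, Prim2 and Brip1, serve DNA synthesis or repair. Of other clients that act on DNA, Dna2 was also higher as deposited (1.97). Pold1 (-0.18), Ddx11 (-0.45), Rtel1 (-0.46), Ercc2 (-0.85) and Nthl1 (-1.10 or below) were not. The 20 measured cytosolic and nuclear clients had a median of -0.46. Pole, the catalytic subunit of a replicative polymerase, had 2983.1 against 457.9, and Prim2, a primase subunit, 2538 against 524.2, a log2 difference of 2.28, or 1.57 when its probe sets were averaged. The helicase Brip1 had 781.8 in the CD45- cells and was under the level in the CD45+ cells, at least 7.73-fold higher. The genes of cell division were higher too, with 5 of 5 measured markers past 4-fold, and their part in the values of these clients was not tested. Among the lower ones, Elp3, a subunit of the tRNA-modifying Elongator complex, had 150.9 against 808.1 (5.36-fold lower), and -1.82 on the log2 scale after quantile normalization, under the 4-fold limit. Xdh, the xanthine dehydrogenase, had 100.1 against 966.1, a difference of -2.92 or below when taken against the CD45-negative array's own level of 127.3. Mutyh, a DNA repair glycosylase, had 105.7 against 448, and against that level its difference of -1.82 or below does not show whether it reached 4-fold. Aco1, which is an aconitase with a cluster and an iron sensor without one, had 1029 against 1642.6 by its brightest probe set and 407.1 against 251.6 by another, which settles no direction. The 12 measured mitochondrial clients had a median of 0.65 and 0 at least 4-fold lower; Sdhb, the iron-sulfur subunit of succinate dehydrogenase, had 4055.5 against 7197.1.

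The lipoylation branch, which depends on Nfu1 and Bola3 through the client enzyme Lias, had members on both sides of 0. Of 9 measured genes, 0 passed 4-fold upward and 1 downward, against 8.31% and 16.8% of all measured genes. The list median was -0.10 (0.32 after quantile normalization). Lias, the lipoyl synthase, had 3522.3 in the CD45- cells against 2010.8, a log2 difference of 0.81. Gcsh, the lipoylated protein of glycine cleavage, had 141.3 against 899.5 (6.37-fold lower), and Dbt, a lipoylated subunit of branched-chain amino acid breakdown, was under the level in the CD45- cells, at 37.8 against 335.9. Against that array's own level the difference of Dbt was -1.40 or below, and without a detection level it was -3.15, so that 2 of the 9 were then past 4-fold downward. Pdhx, a pyruvate dehydrogenase component, had 609.7 against 241.2 (2.53-fold higher). Dld, the shared dihydrolipoamide dehydrogenase, had 1589.7 against 1509.3.

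**Figure D4:**
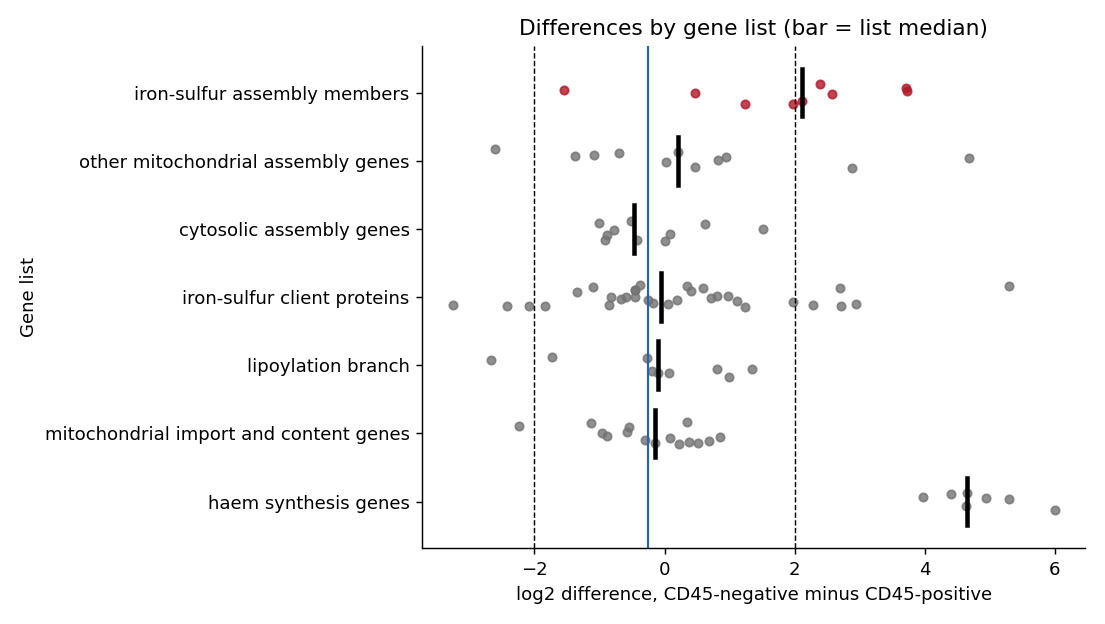
Log2 difference, CD45-negative minus CD45-positive, of each measured gene (points, spread vertically only to separate them) in 7 gene lists, with the list median as a black bar, 4-fold as dashed lines and the median of all measured genes, -0.26, as a blue line. The 9 assembly genes have a median of 2.12, the 4 lists below them have medians between -0.47 and 0.20, mitochondrial import genes -0.14, and haem synthesis genes 4.65.

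Genes of mitochondrial import and general mitochondrial content had no member 2-fold higher in the CD45- cells as deposited, and 1, Timm50 (1.10), after quantile normalization. Of 15 measured, 0 passed 2-fold upward, 2 passed it downward and 1 of these passed 4-fold. Of all measured genes, 16.8% passed 2-fold upward, 33.3% passed it downward and 16.8% passed 4-fold downward. The list median was -0.14, negative in all 9 settings, beside -0.26 for all measured genes. With the mean of probe sets the 2 medians were -0.30 and -0.28, and after quantile normalization -0.23 and 0.01. The 1 past 4-fold was Tfam, the packaging factor of mitochondrial DNA, at 713.8 against 3377.5, and -1.43 when its probe sets were averaged. Hspd1, a mitochondrial chaperone, had 1907 against 4185.9. Tomm20, the import receptor, had 12875.9 against 25026.6, and Timm23, the inner membrane channel, 5301.8 against 5026. In haem synthesis, which shares the demand for mitochondrial iron, all 7 measured genes were at least 4-fold higher, from Urod (3.98) through Uros (4.94) and Fech (5.30) to Alas2 (6.01), with a median of 4.65. Glrx5 and Isca1 came closest to that range among the 9 genes.

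The samples differed in the cell types they held, and these values stand beside every difference above. All 8 measured red cell markers were at least 4-fold higher in the CD45- cells (summed intensity 363746.6 against 10502.3), and all 11 measured white cell markers at least 4-fold lower (5400.7 against 253062.6). Of the white cell markers, Cd3d and Cd48 were under the level in the CD45- cells and the other 9 above it, and Ptprc, which encodes CD45, had 422.7 against 32146.9. All 8 megakaryocyte markers were at least 4-fold higher (36661.3 against 1854.9). Stromal and endothelial markers reached a summed 215.6 against 1652.6, with 2 of 6 above the level. These were the endothelial genes Pecam1 (113.1 against 1350.7) and Cdh5 (13.8 against 126.4). Kdr, Col1a1, Col3a1 and Pdgfrb were under the level in both arrays. Liver markers reached 298.4 against 278.3 with 2 of 5 above it. The part of cell makeup in the differences was not tested, and in bulk samples fewer cells of a type and less RNA per cell cannot be told apart.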

How the data were processed

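RNA of CD45- and CD45+ spleen cells of tumour-bearing mice was measured on 1 Affymetrix array each. The authors deposited 1 linear intensity per probe set and array, from cRNA made with a 3' in vitro transcription kit per the labels' protocols. The submitters' processing notes name GCRMA and Partek 6.6 without their roles. The deposited medians were 85.1 and 87.8, and the means with 2% trimmed at each end 494.1 and 496.9, so direction is settled by the column names but the scaling step is unknown, as are detection calls.

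Platform annotation gave 34945 of 45037 probe sets 1 symbol, 932 several and 9160 none; only the first were used. By Entrez identifier, 34741 of them matched the RefSeq table and 0 symbols changed. The probe set with the highest mean log2 intensity stood for a gene. Intensities at or under 101.1, the 95th percentile of 80 receptor probe sets (127.3 and 73.5 for each array alone), were set to it, which makes such differences bounds. Log2 differences are CD45- minus CD45+, with no pseudocount, and a difference of 2 (4-fold) or 1 (2-fold) was counted. With 1 array per group no p-value is given, and the number of arrays limits precision.

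Members and lists were chosen with earlier results of these data known. The rule for named genes took all 9 genes, the 3 largest differences and the smallest of each list, those 4-fold against their list, and a fixed set of pathway genes. The text does not name every gene the rule took, chiefly among cell type markers, and other genes it names were chosen after their values were seen. Start regions are RefSeq's, GRCm38.p6, read by a script. The calculations ran in Python 3.11.15 with matplotlib 3.10.9, scipy 1.17.1, numpy 2.4.6 and pandas 2.3.3, and were tested on simulated data. The alternatives were another rule for probe sets, scaling, detection level or added intensity.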

Additional observations from a re-analysis of the deposited data

How the results depend on the processing

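No paired analysis was possible because each group had 1 array and no test was made; for the same reason no replicate could be left out. Of the 9 assembly genes, 5 were at least 4-fold higher as deposited and 3 after quantile normalization, where Iscu (1.87) and Isca2 (1.94) lay under the limit; the count was 4 with the mean of probe sets, where Bola3 was at least 1.50 (1.87 without a level), and 6 after median centring, which added Hscb (2.01). The count at 2-fold stayed at 7 under all 8 alternatives, and the median lay between 1.93 and 2.16. Relative to the median of all measured genes, that of the 9 was 2.37 higher as deposited and 1.92 higher after quantile normalization. Of 72 values of single members under the alternatives, 71 had a fold difference within a factor of 1.5 of the reported fold difference. Nfs1 alone changed sign, at -0.10 with the mean of probe sets. Without a detection level, 15.9% of all genes were at least 4-fold higher. No member rests on signal near background by its brightest probe set, but saturation of the brightest ones was not tested.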

Other observations

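Relatives of 3 members were looked at after the members' values had been seen. As deposited, the glutaredoxins and the LYR proteins had genes past 4-fold in both directions. Among the glutaredoxins, Glrx5 was the only one of 4 at least 4-fold higher in the CD45- cells. Glrx, the cytosolic thiol-transferring member, had 243.6 in the CD45- cells against 1444.5 in the CD45+ cells (5.93-fold lower), and -2.08 on the log2 scale after quantile normalization. Glrx2, the other mitochondrial member, had 1622 against 1410.5, and Glrx3, which serves the cytosol, was above the level only in the CD45+ cells, at 144.2. Among the BolA proteins, which pair with glutaredoxins, Bola3 differed by 5.93-fold, Bola2, the cytosolic partner of Glrx3, had 2389.2 against 4497.9, and Bola1, a mitochondrial member, 813.1 against 461.4. The probe sets of Bola2 ran from -0.91 to 1.40, and Bola1 was -0.38 or below with the mean of its probe sets, so no direction holds for either.

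The LYR proteins, small partners of mitochondrial assembly of which Lyrm4 is one, had a median log2 difference of -0.73 over 9 measured genes. Of these 9, 1 was past 4-fold upward and 3 downward, against 8.31% and 16.8% of all measured genes. The higher one was Ndufb9, a subunit of respiratory complex I, at 26310.8 against 5599.3 (2.23, and 1.70 after quantile normalization). Lyrm2 had 206.5 against 1414.8 (6.85-fold lower) and Sdhaf1, an assembly factor that helps to place clusters in succinate dehydrogenase, 312.4 against 1843.3 (5.90-fold lower). Sdhaf3, a second factor of that enzyme, had 110.1 against 678.2 by its brightest probe set, a log2 difference of -2.62. Against the CD45-negative array's own level it was -2.41 or below. Its other probe set was under the level in both arrays and gives no direction. Averaged over the 2, Sdhaf3 was under the level in both arrays, so its direction rests on leaving out the dim one. Lyrm4 and Lyrm9 had the same log2 difference, 1.23, while Lyrm7 was under the level in both arrays.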
